A study of Rattus norvegicus with 11 samples.

Results

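The transcripts of the normal adult rat lung were described from 4 Affymetrix arrays, out of 11 in the series. These are the arrays of the animals kept in room air and given vehicle, the baseline group of a study of hypoxic pulmonary hypertension, and they were chosen by their labels (Control 1 to 4) and by no measured value. The animals were Dahl salt-sensitive rats, an inbred line known for its blood pressure response to dietary salt, with a body weight of 250 to 350 g. Lungs were taken at 3.5 weeks after perfusion of the vessels through the pulmonary artery, and total RNA of lung tissue was hybridised as biotin-labelled cRNA. The labels do not say that the arrays come from separate animals, so the standard deviation (SD) given throughout is the spread between 4 arrays and may be partly technical. There is 1 group and no contrast, so no p-value is given anywhere.

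A whole lung is a mixture. Its gas-exchange surface is lined by flat alveolar type I cells and by cuboidal type II cells, which make surfactant, the film of lipid and protein that keeps alveoli from collapsing. Beneath the epithelium lies a dense capillary bed, and airways, larger vessels, fibroblasts, macrophages and other leukocytes make up most of the rest. In bulk tissue, fewer cells of a type and less RNA per cell cannot be told apart.

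The array holds 31099 probe sets, and all but its 57 controls, 31042 in number, were ranked by mean log2 signal over the 4 arrays. A probe set is a group of short probes for 1 transcript, and its signal depends on how well those probes bind as well as on the transcript. A rank is therefore a rank of signals. The size of this effect can be read from the 4525 genes with more than 1 probe set: the means of the probe sets of a gene spanned a median of 2.00 log2, and for 49.9% of these genes they spanned over 2 log2. Sptbn1, a spectrin of the membrane skeleton, has 4 probe sets whose means ran from 3.29 to 13.48 log2. No difference between genes is tested below for this reason. Each gene is represented by its brightest probe set that names it alone, which gives 14217 genes.

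Background was set at 5.45 log2, the 95th percentile of the control probe sets for transcripts of a bacterium absent from the tissue. A mean above it was found for 26157 probe sets (84.3%) and for 12931 genes (91%). On all 4 arrays, 77.6% of probe sets and 86.7% of genes were above it. The median gene had 8.79 log2, and 1% of genes lay above 12.7 log2. Genes from 5 lists for other organs (liver, brain, skeletal muscle, kidney, and pancreas with gut) had a median of 6.24 log2 and a 90th percentile of 8.47 log2. Signals in this range, above background, were thus common for genes known from tissues other than lung.

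The arrays differed in the state of their RNA controls. The gap between the 3′ and 5′ probe sets of beta-actin, which widens where transcripts are incomplete, was 2.24, 1.33, 0.51 and 0.60 log2 on arrays 1 to 4, and that of Gapdh was 0.84, 0.64, 0.11 and 0.06 log2. The hybridisation spike cre read 13.17, 12.92, 12.32 and 11.97 log2. Arrays 1 and 2 thus had wider gaps and brighter spikes than arrays 3 and 4. The mean of the 100 highest probe sets was 13.52, 13.49, 13.08 and 13.16 log2 in the same order. Pearson correlations over all probe sets, which are not independent, were 0.931 to 0.964, and arrays 3 and 4 were the closest pair.

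**Figure D1:**
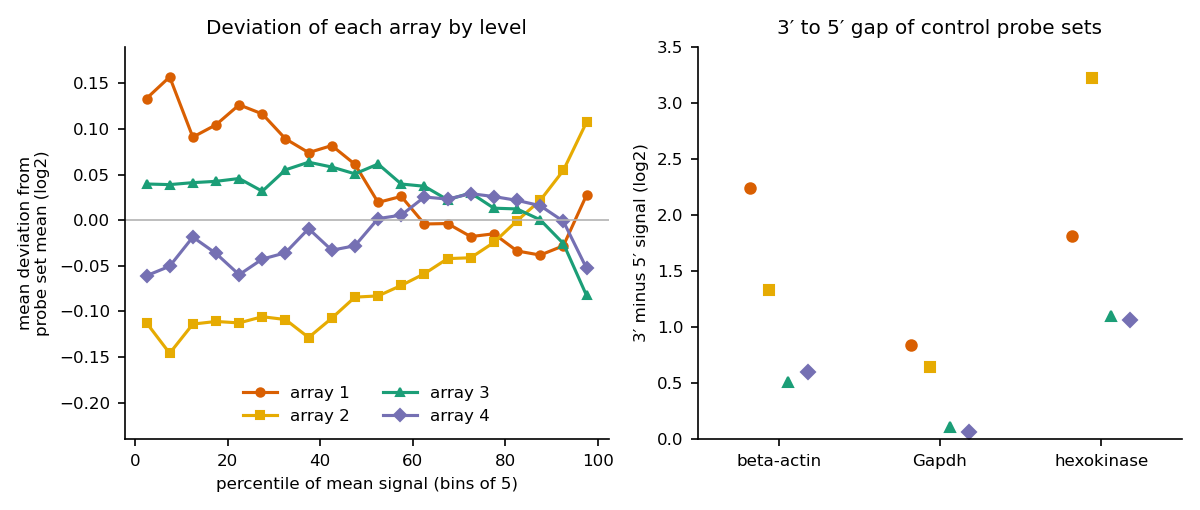
Left, mean deviation of each array from the probe set means (log2, y axis) against the percentile of mean signal (x axis, bins of 5); right, 3′ minus 5′ signal (log2) of 3 control transcripts, 1 point per array. Arrays 1 and 2 lay above arrays 3 and 4 among the brightest probe sets, and their 3′ to 5′ gaps were wider for all 3 controls.

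Promoter sequence is shown for 6 genes named in the results below. They are the surfactant protein Sftpa1 and the airway secretoglobin Scgb1a1, from among the brightest transcripts, and Nppa, Nr1d1, Bmal1 and Per2, which differed most between arrays or belong to a list that did. Each window runs from 250 bases before to 50 bases after the annotated start of the gene, 5′ to 3′ on the gene's strand, from RefSeq on GRCr8. Capitals mark the TATA box (TATAAA) in Sftpa1, Scgb1a1 and Nppa, a core site of the ROR and REV-ERB receptors (AGGTCA) in Bmal1, and a D-box (TTATGNAA) in Per2. None of the 4 motifs searched was found in the Nr1d1 window. The windows of Dbp, Per3, Per1 and Myl7 also held none and are not printed. That of Sftpb, likewise not printed, held AGGTCA 88 bases before the start. Every window with a marked motif is printed, so the share of printed windows with a motif has no meaning.
Sftpa1 (chr16:17042014-17042313, plus strand): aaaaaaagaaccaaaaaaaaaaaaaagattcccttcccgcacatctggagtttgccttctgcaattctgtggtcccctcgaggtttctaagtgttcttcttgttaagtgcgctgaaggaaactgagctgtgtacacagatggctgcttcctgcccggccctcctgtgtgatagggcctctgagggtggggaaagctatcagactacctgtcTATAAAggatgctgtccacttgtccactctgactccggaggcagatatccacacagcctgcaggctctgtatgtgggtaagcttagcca
Scgb1a1 (chr1:215409637-215409936, minus strand): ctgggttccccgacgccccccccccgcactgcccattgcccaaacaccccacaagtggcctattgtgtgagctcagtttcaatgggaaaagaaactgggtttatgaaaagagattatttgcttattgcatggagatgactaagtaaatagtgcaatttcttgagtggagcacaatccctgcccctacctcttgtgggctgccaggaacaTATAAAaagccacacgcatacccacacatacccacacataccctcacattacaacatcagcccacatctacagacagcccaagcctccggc
Nppa (chr5:163711934-163712233, plus strand): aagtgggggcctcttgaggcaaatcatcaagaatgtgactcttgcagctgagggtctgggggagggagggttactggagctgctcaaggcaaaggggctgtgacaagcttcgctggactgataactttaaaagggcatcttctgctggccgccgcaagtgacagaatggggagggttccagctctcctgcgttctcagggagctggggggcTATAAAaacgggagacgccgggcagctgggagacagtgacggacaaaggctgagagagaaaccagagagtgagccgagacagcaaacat
Nr1d1 (chr10:84231763-84232062, minus strand): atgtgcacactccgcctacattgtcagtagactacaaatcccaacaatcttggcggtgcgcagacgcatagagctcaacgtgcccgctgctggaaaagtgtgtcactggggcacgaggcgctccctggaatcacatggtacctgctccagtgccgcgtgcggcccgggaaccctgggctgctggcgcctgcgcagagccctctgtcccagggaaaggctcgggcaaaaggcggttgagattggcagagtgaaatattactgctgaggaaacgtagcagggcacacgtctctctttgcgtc
Bmal1 (chr1:176766078-176766377, plus strand): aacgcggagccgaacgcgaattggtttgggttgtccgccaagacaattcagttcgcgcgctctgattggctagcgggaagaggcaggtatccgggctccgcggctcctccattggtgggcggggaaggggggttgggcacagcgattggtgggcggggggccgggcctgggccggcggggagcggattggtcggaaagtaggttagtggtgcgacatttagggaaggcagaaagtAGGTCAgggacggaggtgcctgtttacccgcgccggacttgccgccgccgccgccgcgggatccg
Per2 (chr9:99496944-99497243, minus strand): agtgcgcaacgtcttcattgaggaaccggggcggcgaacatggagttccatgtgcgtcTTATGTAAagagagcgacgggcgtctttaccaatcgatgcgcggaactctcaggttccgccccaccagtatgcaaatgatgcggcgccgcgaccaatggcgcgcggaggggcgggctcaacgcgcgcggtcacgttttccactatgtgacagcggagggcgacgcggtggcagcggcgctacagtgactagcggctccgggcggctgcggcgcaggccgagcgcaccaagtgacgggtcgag

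The windows were searched on both strands for these 3 motifs and for the E-box CACGTG, the site read by the clock proteins. Among 27457 promoters of full length, TATAAA occurred in 14.3%, CACGTG in 6.65%, TTATGNAA in 3.54% and AGGTCA in 15.7%. The TATA box of Sftpa1 and that of Nppa each lay 39 bases before the start, and that of Scgb1a1 lay 41 bases before it. The AGGTCA of Bmal1 lay 15 bases and the D-box of Per2 192 bases before the start. Scgb1a1 also holds a D-box match, 150 bases before its start, left in lower case above. Among the 30 dominant genes described next, 25 have a promoter entry, and 5 of these (20%) hold TATAAA: B2m, Rpl3, Scgb1a1, Sftpa1 and Txn1. Their median GC content was 59.7%, against 52.3% over all promoters. A match is a stretch of letters and says nothing of whether a factor binds there.

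The brightest transcripts combined genes of every cell with genes of the alveolus and airway. Among the 100 highest probe sets, 58 carry a single gene name, 26 carry more than 1 and 16 are unnamed. Ribosomal proteins account for 19 of the 58, and for 35 of the 100 when probe sets naming several genes are included. The highest probe set of all names no gene and had 14.01 ± 0.34 log2 (SD, n = 4). The top 100 held 5.49% ± 0.75 (SD, n = 4) of the summed linear signal, and the top 1000 held 27.9% ± 1.94.

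The highest probe set with a single name was COX2, the mitochondrially encoded subunit 2 of cytochrome c oxidase, at 14.11, 14.04, 13.38 and 13.59 log2 on arrays 1 to 4. COX1, its partner subunit, had 14.11, 13.84, 13.28 and 13.35 log2. Both respiratory chain genes were higher on arrays 1 and 2. Other general transcripts followed within a narrow range: Eef1a1, the elongation factor that brings tRNA to the ribosome, averaged 13.62 log2. Tmsb4x, which binds actin monomers, and Gsn, the actin-severing gelsolin, had the same mean. B2m, the light chain of MHC class I, averaged 13.54 log2. Selenop, a secreted carrier of selenium, averaged 13.65 log2 on this probe set and 8.86 log2 on its other one.

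Surfactant genes stood among these. Sftpa1, a collectin that binds microbes and surfactant lipid, ranked 4th with 13.80, 13.84, 13.51 and 13.64 log2. Sftpc, a small hydrophobic surfactant protein made by type II cells alone, ranked 32nd with 13.89, 13.47, 12.94 and 13.22 log2. Sftpb, the other hydrophobic protein, had 13.29, 13.44, 12.95 and 13.11 log2 (its other probe set averaged 9.74 log2). All 3 were higher on arrays 1 and 2 than on arrays 3 and 4, by margins of no more than 1 log2. The 4 measured surfactant proteins all had this order, but 1 of the 4 had it after quantile normalization. Slc34a2, the phosphate transporter of the type II cell, averaged 13.28 ± 0.23 log2 (SD, n = 4), and Npc2, a sterol-binding protein, 13.24 ± 0.14 log2.

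Scgb1a1, the secretoglobin of club cells, was the only member of the airway list among the 30, with 13.87, 13.54, 13.17 and 13.29 log2. Hopx, a homeobox cofactor marking type I cells, had 13.51, 13.51, 13.08 and 13.09 log2. Epas1, the alpha subunit of hypoxia-inducible factor 2, ranked 20th with 13.77, 13.62, 13.35 and 13.22 log2. These 3 again had arrays 1 and 2 above arrays 3 and 4. The other probe set of Epas1 averaged 11.59 log2. Cd74, the invariant chain of MHC class II, showed the smallest SD of the 30 genes, 0.11 log2, with 13.28, 13.47, 13.22 and 13.39 log2 and overlapping pairs of arrays. Defb4, a beta-defensin, averaged 13.29 ± 0.18 log2, and Ifi27, an interferon-induced gene, 13.26 ± 0.20 log2.

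In 97 of the 100 highest probe sets, both arrays 1 and 2 lay above both arrays 3 and 4, against 24.7% of all genes. After quantile normalization, which gives all arrays the same distribution, 19 of the 100 did so, and the median SD of the 100 fell from 0.23 to 0.07 log2. Of the 100, 74 were in the top 100 on every array, and none fell below rank 187 on any array. Ranks within the top moved more widely: Sftpc ranked from 13 to 82 and Cd74 from 10 to 91 on single arrays.

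**Figure D2:**
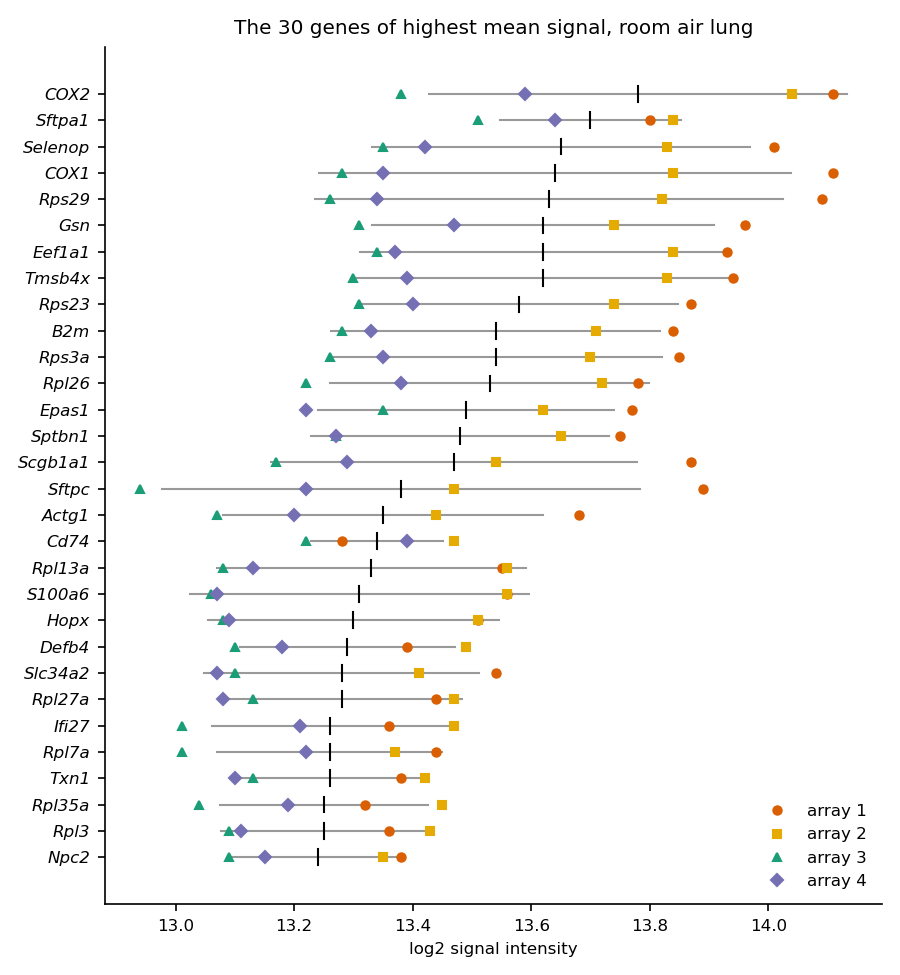
Log2 signal (x axis) of the 30 genes of highest mean, in rank order from the top; coloured symbols are the 4 arrays, the black tick is the mean and the grey bar is ±1 SD. For most genes arrays 1 and 2 sit to the right of arrays 3 and 4, by less than 1 log2, and the means run from 13.78 (COX2) to 13.24 (Npc2).

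The labelled tissue was checked against markers. The 14 measured type II genes were all above background (91% of all genes were), with a median of 12.43 log2. Lamp3, of the lamellar body that stores surfactant, averaged 13.07 log2. Sftpd, the second lung collectin, averaged 12.77 log2, and Nkx2-1, the transcription factor of lung epithelial identity, 11.65 log2. Abca3, which pumps lipid into lamellar bodies, varied little, with 11.54, 11.55, 11.46 and 11.61 log2. Napsa, an aspartic protease that processes Sftpb, was lower on arrays 1 and 2, with 11.16, 11.67, 11.79 and 12.01 log2. Slc34a1, a kidney paralogue of Slc34a2 kept in the list, was the lowest at 6.77 ± 0.57 log2.

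All 11 type I genes were above background (91% of all genes were), with a median of 12.67 log2. All 11 had arrays 1 and 2 above arrays 3 and 4, as had 24.7% of all genes and 97 of the 100 highest probe sets. After quantile normalization 9 of 11 had this order, beside 25.7% of all genes and 19 of those 100. Ager, the receptor for advanced glycation end products and a defining type I gene, had 13.22, 13.29, 12.68 and 12.85 log2. Cav1, the coat protein of caveolae, averaged 13.15 ± 0.28 log2 and also serves endothelium. Gprc5a, an orphan receptor, averaged 12.93 ± 0.24 log2. Igfbp2 was the lowest member at 10.38 ± 0.13 log2, above the 75th percentile of all genes, 9.99 log2.

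Of pan-endothelial genes, 13 of 13 were above background, near the 91% of all genes, with a median of 11.57 log2. Ramp2, which pairs with the adrenomedullin receptor, averaged 12.96 log2. Tek, the angiopoietin receptor, averaged 12.50 ± 0.36 log2, and Cldn5, the tight junction claudin of endothelium, 12.63 ± 0.20 log2. The lowest was Nos3, endothelial nitric oxide synthase, which was steady at 7.45, 7.49, 7.42 and 7.59 log2. Calcrl, the receptor partner of Ramp2, was lower on arrays 1 and 2, with 9.78, 10.12, 11.83 and 11.67 log2, the reverse of Ramp2.

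Of capillary genes, 11 of 11 were above background (median 10.82 log2), near the 91% of all genes. Car4, a carbonic anhydrase of the capillary surface, had 10.77, 10.93, 10.87 and 10.73 log2. Plvap, of the diaphragms of endothelial openings, averaged 12.79 ± 0.27 log2, and Kdr, VEGF receptor 2, 12.58 ± 0.07 log2. Emcn, a sialomucin, averaged 11.97 ± 0.08 log2 and Apln, a peptide ligand of tip-like capillary cells, 11.38 ± 0.13 log2. Car4, Kdr and Emcn were among the steadier markers on these probe sets, with SDs below 0.10 log2. The other probe sets of Car4 and Kdr averaged 6.015 and 7.345 log2. Kit, the stem cell factor receptor shared with mast cells, was the lowest at 8.92 ± 0.65 log2. Of 14 genes of arteries, veins and lymphatics, all were above background, again near the share of all genes. Lyve1, a hyaluronan receptor, averaged 12.63 log2, Nr2f2, the venous regulator, 11.81 log2, and Gja5 and Gja4, arterial connexins, 11.47 and 11.35 log2.

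Mesenchymal lists had medians of 10.36 log2 (smooth muscle), 9.53 log2 (pericytes) and 11.34 log2 (fibroblasts and matrix). Above background were 12 of 12, 12 of 12 and 13 of 13 of their genes, near the 91% of all genes. Acta2, smooth muscle actin, had 11.88, 11.94, 11.46 and 11.33 log2. Mylk, the kinase that triggers smooth muscle contraction, averaged 12.28 log2, and Myocd, the cofactor that drives the smooth muscle programme, was the lowest of its list at 6.77 log2. Col3a1, a fibrillar collagen, had 13.00, 13.00, 13.18 and 13.09 log2, and Col1a2 had 12.15, 12.50, 12.85 and 12.73 log2. Both collagens were higher on arrays 3 and 4, unlike Mfap4, a microfibril protein, with 13.36, 13.24, 12.81 and 12.87 log2. Limch1 averaged 13.09 log2 and Lum, a proteoglycan, was the lowest matrix gene at 9.65 ± 0.61 log2. Of 9 mesothelial genes all were above background, from Krt19 at 11.50 log2 to Bnc1 at 5.67 log2.

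Airway genes beyond Scgb1a1 spread further. Aldh1a1, an aldehyde dehydrogenase, averaged 12.56 ± 0.46 log2, and Cyp4b1, a lung cytochrome P450, 12.24 ± 0.26 log2. Muc5ac, the goblet cell mucin, was the single member of 9 below background, at 5.16 ± 0.90 log2, whereas Muc5b averaged 9.06 ± 0.70 log2. All 9 ciliated genes were above background (91% of all genes were). They ran from Tppp3, a tubulin-binding protein, at 12.32 log2 and Foxj1, the regulator of motile cilia, at 9.52 ± 0.41 log2 down to Ccdc113 at 6.61 log2. Of basal and neuroendocrine genes 5 of 9 passed. Krt5, the basal cell keratin, had 8.10 ± 0.21 log2. Tp63, the basal cell regulator, and Chga, chromogranin A, were below background at 5.37 and 3.45 log2.

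Leukocyte lists ranged from near the top of the array to its background. Counts above background in the class II and macrophage lists were near the 91% of all genes. Of MHC class II and dendritic cell genes, 9 of 10 were above background (median 11.14 log2). Beside Cd74, the class II chains RT1-Da and RT1-Bb had 12.66 ± 0.08 and 12.64 ± 0.09 log2. The other probe set of RT1-Bb averaged 5.67 log2. Flt3, the growth factor receptor of dendritic cells, was below background at 3.97 log2. Of alveolar macrophage genes 9 of 10 passed (10.21 log2), led by Ctsd, a lysosomal protease, at 12.51 log2 and Lpl, lipoprotein lipase, at 11.87 log2. The one below background was Cidec, a lipid droplet protein, at 4.51 log2. Of interstitial macrophage and monocyte genes 11 of 12 passed (9.09 log2), led by Lyz2, lysozyme, at 13.17 log2 and Csf1r, the receptor on which macrophages depend, at 11.37 log2. Ms4a7 was below background at 4.92 log2.

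Lymphocyte lists had medians close to the 8.79 log2 of all genes, 8.94 log2 for T and NK cells and 8.66 log2 for B and plasma cells. Above background were 13 of 13 and 7 of 7, beside 91% of all genes. Prf1, perforin, led the first list at 10.72 log2 and Cd3d, a chain of the T cell receptor complex, closed it at 6.89 ± 1.30 log2. Jchain, which joins IgA and IgM, led the second at 10.28 log2. Mast cell genes (10 of 10, median 7.98 log2) were led by Gata2 at 11.10 log2, a transcription factor that endothelium also uses, and by Cpa3, a mast cell protease, at 9.04 log2. The other probe set of Gata2 averaged 6.67 log2, below the list median. Neutrophil genes passed in 7 of 8 (7.42 log2). S100a9 had 10.48, 10.25, 10.73 and 10.70 log2, whereas Camp, the cathelicidin of granules, was below background at 4.48 log2.

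Lungs were perfused before sampling, and red cell genes were still measured. Hbb, beta globin, was bright on every array, with 12.41, 12.81, 13.23 and 13.06 log2, and Alas2, the first enzyme of heme synthesis in red cells, averaged 9.26 ± 0.61 log2. Hbb was higher on arrays 3 and 4 than on arrays 1 and 2. Of the 7 erythroid genes 5 were above background (91% of all genes were), with a median of 6.24 log2, and Epb42, of the red cell membrane, was at 4.33 log2. Platelet genes passed in 6 of 6 (7.73 log2), led by Pf4, platelet factor 4, at 9.82 log2.

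The lists for other organs had medians from 5.39 to 7.16 log2, a range that also holds the basal and neuroendocrine list (5.99 log2) and the erythroid list. Over all genes 91% were above background. Of kidney genes 4 of 9 were above it (median 5.39 log2) and of pancreas and gut genes 6 of 10 (5.83 log2). Of neuronal genes 7 of 10 passed (6.25 log2), of hepatocyte genes 7 of 10 (7.11 log2) and of skeletal muscle genes 8 of 10 (7.16 log2). The brightest were Serpina1, the antitrypsin of plasma, at 9.85 log2 and Cyp2e1, an ethanol-metabolising P450, at 8.96 log2. Defining genes of these organs lay on both sides of background. Below it were Umod of the kidney at 4.72 log2, Apoa1 of the liver at 2.46 log2, Snap25 of synapses at 5.18 log2 and Cpa1 of the pancreas at 3.89 log2. Above it were Alb, albumin, at 8.57 log2, Syn1, of synaptic vesicles, at 8.46 log2, Ins1, insulin, at 8.28 log2 and Myog, the regulator of skeletal muscle differentiation, at 8.01 log2. Adipocyte genes passed in 7 of 7 (7.66 log2), and 6 of the 7 were highest on array 3, where 24.4% of all genes had their highest value. The housekeeping genes, a reference list, lay among the lung lists with a median of 11.78 log2. So did the immediate early genes, with a median of 11.17 log2, of which Dusp1, a phosphatase of MAP kinases, averaged 12.94 log2.

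**Figure D3:**
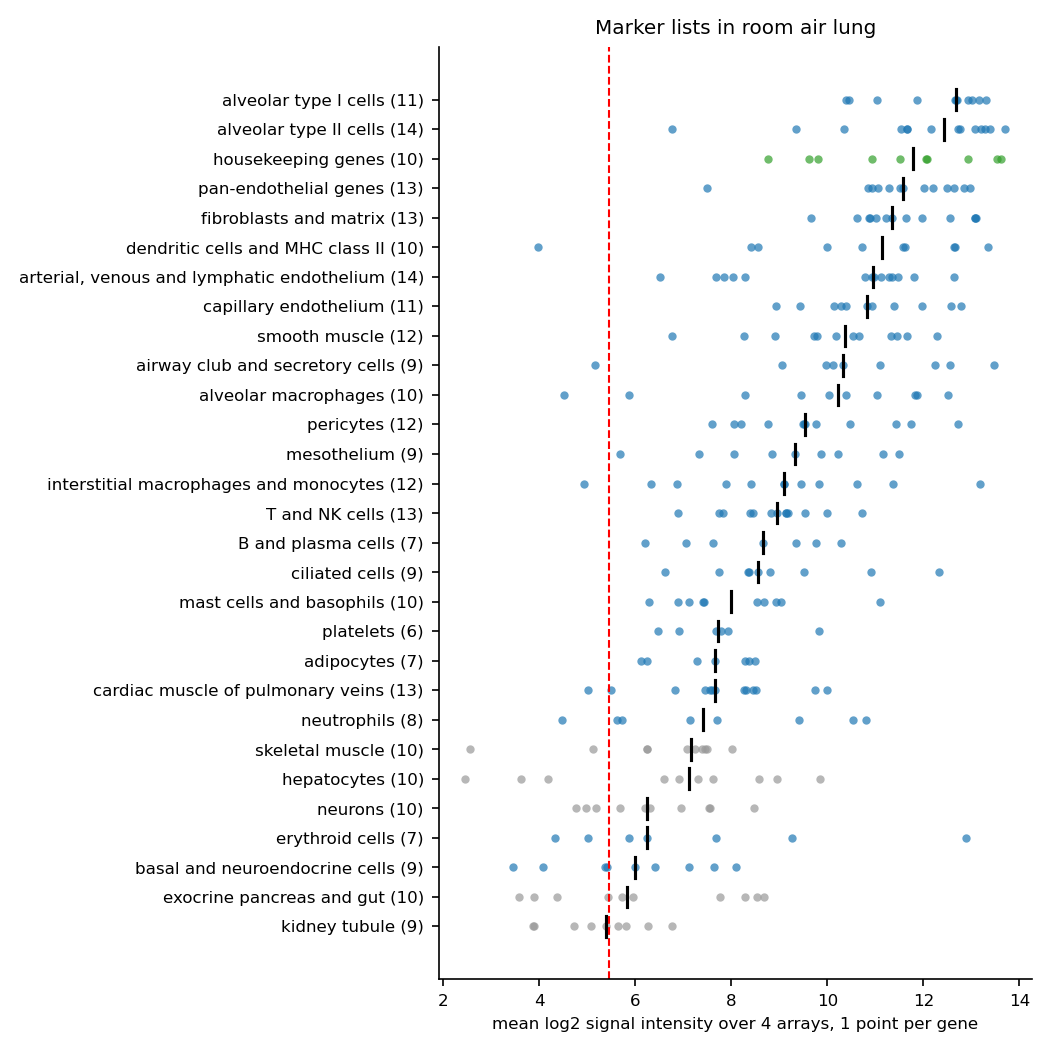
Mean log2 signal (x axis) of the measured members of each marker list, 1 point per gene; blue is a cell type, grey another organ and green a reference list, the black tick is the list median, the red dashed line is background at 5.45 log2 and the number of genes is in brackets. Type I, housekeeping, type II and endothelial lists lie to the right, with type I at a median of 12.67, and kidney lies lowest at 5.39.

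Paralogues, related genes with a common ancestor, were set side by side. Probe sets of a single gene spanned a median of 2.00 log2, and 90% of such spans were under 4.76 log2, so gaps below these sizes are no larger than gaps within genes. In several families a member lay below background. Ldha and Ldhb, the subunits of lactate dehydrogenase in most tissues, averaged 11.82 and 10.40 log2, against 3.00 log2, below background, for the testis form Ldhc. Slc2a1, the widespread glucose transporter, averaged 9.15 log2 and Slc2a2, the transporter of liver and islets, 2.14 log2, below background. Epas1 and Hif1a, the hypoxia-inducible alpha subunits, averaged 13.49 and 11.57 log2, against 4.09 ± 1.46 log2 for Hif3a, whose mean was below background. A probe set below background gives no level for its transcript.

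Some other families include a form known from another tissue. Cav1 and Cav2 averaged 13.15 and 13.11 log2, against 6.88 ± 1.03 log2 for Cav3, the muscle caveolin, which had 8.34 log2 on array 3 and at most 6.86 log2 on the others. Eef1a1 averaged 13.62 log2 and Eef1a2, the form of muscle and neurons, 7.01 log2. Among secretoglobins Scgb1a1 averaged 13.47 log2 and Scgb1c1 3.42 log2. Mt2A, a metal-binding metallothionein, averaged 10.27 log2, whereas Mt1 was below background at 3.42 log2. The Mt1 value describes this probe set and does not show that the transcript was absent. Aqp1, the water channel of endothelium, and Aqp5, that of type I cells, averaged 12.24 and 11.86 log2, Aqp4 averaged 9.27 log2, and Aqp3 was below background at 3.42 ± 1.34 log2.

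Other families held members at like and at unlike signals. The 3 subunits of the epithelial sodium channel, which clears fluid from the airspace, averaged 10.90 (Scnn1a), 10.23 (Scnn1g) and 9.62 log2 (Scnn1b), a gap under 2.00 log2. This holds for the brightest probe sets only. The other probe set of Scnn1a averaged 7.17 log2, below the other subunits, and that of Scnn1g 9.18 log2. Atp1b3 and Atp1b1, beta subunits of the sodium pump, averaged 12.22 and 11.39 log2, whereas Atp1b2 averaged 9.13 log2 and Atp1a4, the alpha subunit of sperm, was below background at 3.46 log2. Cldn18, the claudin of alveolar epithelium, and Cldn5 averaged 12.67 and 12.63 log2, and the remaining 5 claudins ran from 9.46 (Cldn3) to 7.13 log2 (Cldn2). Nos2, Nos1 and Nos3 averaged 8.38, 7.66 and 7.49 log2. The order of the 3 synthases cannot be read as an order of transcripts, since the whole family lay within 1 log2.

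Among carbonic anhydrases Car2 averaged 11.21 log2, Car4 10.82 log2 and Car8 10.64 log2, and Car12 was below background at 3.59 log2. The least steady were Car1, an erythrocyte form, with 6.56, 6.33, 6.80 and 4.10 log2, and Car3, the form of muscle and fat, with 8.51, 9.90, 11.30 and 9.06 log2. Car1 was low on array 4 and Car3 high on array 3. Of the VEGF receptors Kdr averaged 12.58 log2, Flt1 10.30 log2 and Flt4, the lymphatic form, 7.68 log2. The other probe set of Kdr averaged 7.345 log2, and the lowest of 3 for Flt1 averaged 7.98 log2. Notch1 averaged 10.90 log2, Notch3, of mural cells, 8.76 log2, and Notch4 7.71 log2. Notch2 differed between arrays, with 5.21, 5.40, 7.58 and 7.41 log2. Cyp4b1 averaged 12.24 log2, and Cyp1b1 9.04 log2, Cyp1a2 8.28 log2 and Cyp1a1 6.77 log2. Ptgs1, the constitutive cyclooxygenase, averaged 9.45 log2 and Ptgs2, the inducible one, 7.56 log2. The other probe set of Ptgs1 averaged 7.05 log2, below Ptgs2, so their order cannot be read as an order of transcripts.

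**Figure D4:**
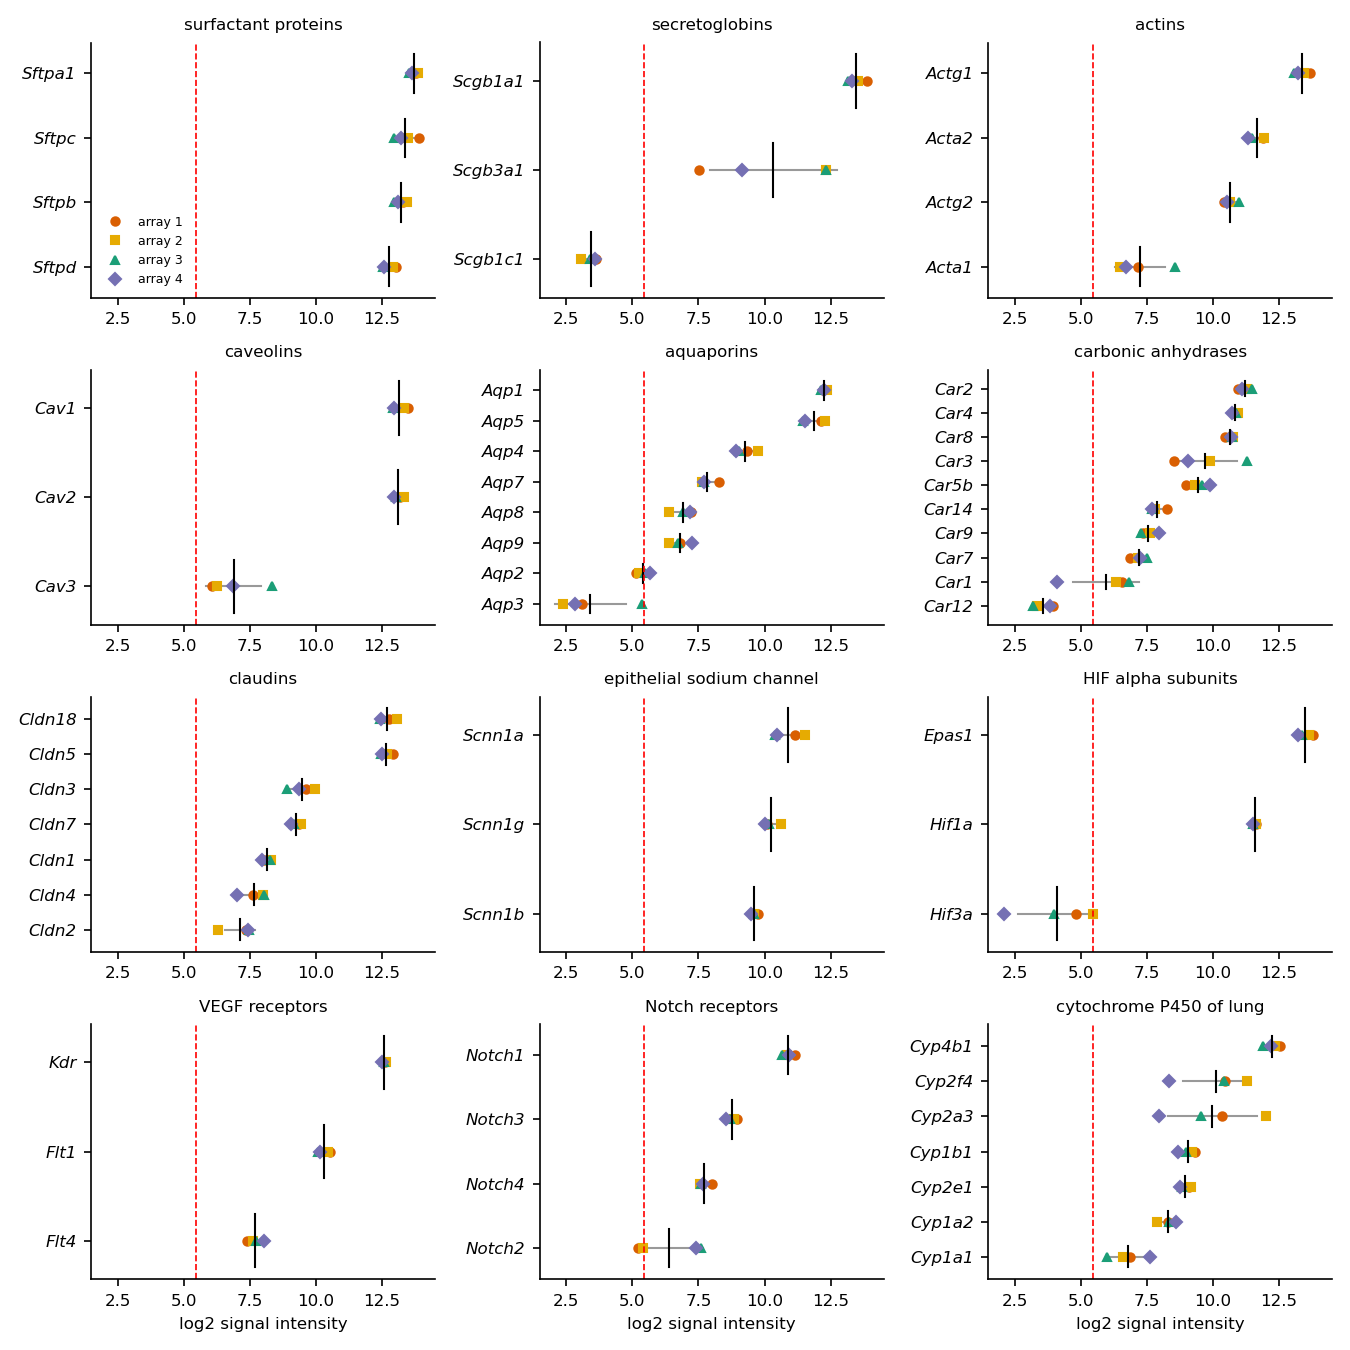
Log2 signal (x axis) of the members of 12 families, 1 panel each; coloured symbols are the 4 arrays, black ticks the means, grey bars ±1 SD and the red dashed line background at 5.45 log2. In the HIF and caveolin panels 1 member lies far to the left (Hif3a at 4.09 and Cav3 at 6.88), while the 3 sodium channel subunits lie between 9.62 and 10.90.

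The spread between arrays depended on the level. The SD had a median of 0.29 log2 over all probe sets, 0.62 log2 among the 25% of probe sets with the lowest signals and 0.18 log2 among the 25% with the highest. An SD over 1 log2 was found for 596 genes (4.19%), and for 73 of the 12328 genes above background on all 4 arrays (0.592%). The steadiest bright genes had SDs of 0.01 to 0.02 log2: Nop16, a nucleolar protein, had 10.51, 10.53, 10.52 and 10.51 log2, and Adar, the RNA-editing adenosine deaminase, 10.15, 10.17, 10.14 and 10.15 log2. Other genes of this kind were Srsf1, a splicing factor, Pxdn, a peroxidase of basement membrane, Scp2, a sterol carrier, and Atp6v0e1, of the proton pump, as well as Ubap1, Lhfpl6, Otud5 and C1h11orf98. Among single-gene probe sets above background on all 4 arrays, the 15 with the widest spread included 11 for genes of 3 lists: heart muscle, airway secretion and the circadian clock. These lists hold 13, 9 and 13 of the 14217 genes. The lists were chosen with earlier results of these data known, so the overlap is no independent result. Clock entered by a probe set other than its brightest. Tnnt2, Csrp3, Tnni3 and Per3 had SDs of 3.07, 2.57, 2.38 and 2.06 log2 but were below background on at least 1 array.

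Heart muscle genes varied most as a list. Rodent pulmonary veins carry a sleeve of cardiac muscle, and atrium lies close to the hilum; the list does not tell the sources apart. Myl7, the atrial myosin light chain, had 7.78, 10.78, 12.23 and 8.14 log2. Myh6, the alpha myosin heavy chain, had 8.80, 11.29, 12.02 and 7.89 log2. Nppa, the natriuretic peptide of atrial muscle, had 7.21, 8.91, 11.04 and 6.08 log2, a 31.2-fold range. All 3 were highest on array 3, next on array 2, and low on arrays 1 and 4. Tnnt2, cardiac troponin T, ran from 3.98 log2 on array 1, below background, to 10.87 log2 on array 3, and Mb, myoglobin, from 6.11 to 10.87 log2.

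All 13 measured heart genes had their highest value on array 3, against 24.4% of all genes, and 7 of 13 had their lowest on array 4, against 23.8%. An SD over 1 log2 was found for 9 of the 13 (4.19% of all genes). The median SD of the list was 2.06 log2, 0.39 log2 without arrays 2 and 3 (a choice made after seeing the data), and 2.87 log2 without arrays 1 and 2. Myl3 and Myh7, ventricular genes, averaged 5.49 and 5.02 log2, near or below background. Tpm1, a tropomyosin outside the list, followed the same order on 1 of its 7 probe sets, with 6.98, 10.32, 11.77 and 8.27 log2. The 3′ to 5′ gap of hexokinase was widest on array 2 (1.82, 3.22, 1.10 and 1.06 log2 on arrays 1 to 4), and those of beta-actin and Gapdh on array 1; their part in the pattern was not tested.

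Airway secretory genes also differed between arrays. Scgb3a1, a secretoglobin of larger airways, had the largest SD of any single-gene probe set above background on all arrays, 2.40 log2, with 7.52, 12.33, 12.33 and 9.15 log2 (a 28.1-fold range). Bpifa1, a secreted protein of upper airway epithelium, had 10.10, 12.25, 12.69 and 9.36 log2. Both were high on arrays 2 and 3, the arrays high in heart genes. Cyp2a3, a P450 of nasal and airway epithelium, had 10.35, 12.01, 9.56 and 7.97 log2, and Cyp2f4, a P450 of club cells, 10.45, 11.27, 10.42 and 8.35 log2. These P450 genes were highest on array 2 and lowest on array 4. Scgb1a1 did not share these patterns: its range over the 4 arrays was under 1 log2. A small range was common at its level, since it ranked 24th and the 100 highest probe sets had a median SD of 0.23 log2. The median SD of the airway list was 0.90 log2, and 0.56 log2 without array 4.

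Circadian clock genes separated arrays 1 and 2 from arrays 3 and 4. The clock is a feedback loop in which CLOCK or NPAS2 with BMAL1 switch on Per, Cry and Nr1d genes through E-boxes, and the NR1D (REV-ERB) proteins in turn repress Bmal1. Nr1d1 had 11.64, 11.41, 7.57 and 7.66 log2, a 16.8-fold range. Dbp, a D-box factor driven by the loop, had 10.52, 10.99, 7.04 and 6.94 log2, and Per3 had 9.12, 7.84, 5.41 and 4.73 log2. All 3 were high on arrays 1 and 2 and low on arrays 3 and 4, with no overlap. Bmal1 had 7.04, 7.07, 8.69 and 8.82 log2, the opposite order, also with no overlap.

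Of the 13 clock genes, 8 were higher on both arrays 1 and 2 (Tef, Nr1d2, Cry2, Per1, Per2, Nr1d1, Dbp and Per3) against 24.7% of all genes. Another 4 were lower on both (Clock, Npas2, Cry1 and Bmal1) against 24.5%. Bhlhe41, a repressor in the loop, overlapped. After quantile normalization the counts were 9 and 4. Per1 had 10.46, 10.60, 8.49 and 8.86 log2, whereas Cry1 moved little, with 8.28, 8.26, 8.47 and 8.53 log2. Cry1, a target of the loop, thus fell on the same side as Clock, Npas2 and Bmal1, unlike the Per genes. The median SD of the list was 0.89 log2, and 0.08 log2 without arrays 1 and 2.

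The split of the clock genes coincides with the split of the 3′ to 5′ gap and of the spikes, and the part of RNA state in it was not tested. Probe sets of 1 gene differed in the size of the split. The brightest probe set of Clock had 9.56, 9.55, 9.65 and 9.71 log2, whereas another had 5.68, 5.72, 8.75 and 8.31 log2. App, the amyloid precursor, was also low on arrays 1 and 2 on 1 of its 3 probe sets, with 8.58, 9.70, 11.87 and 11.58 log2, as were Rsrp1 and Zfp574. The labels used here give no time of day for the lungs. Beside the D-box of Per2 and the AGGTCA of Bmal1 printed above, the clock promoters were counted: of 12 matched, 1 (8.33%, beside 3.54% of all promoters) held TTATGNAA and 2 (16.7%, beside 15.7%) held AGGTCA, namely Bmal1 and Nr1d2. CACGTG was found in 2 (16.7%, beside 6.65%), those of Bhlhe41 and Tef, and TATAAA in none.

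Macrophage genes tended to be lower on arrays 1 and 2. Of 12 interstitial macrophage and monocyte genes, 10 were lower on both arrays 1 and 2 than on arrays 3 and 4 (24.5% of all genes), and the count was 10 again after quantile normalization. C1qb, a chain of complement C1q, had 7.49, 8.02, 8.97 and 9.17 log2, and Fcgr3a, an Fc receptor, 9.87, 10.56, 10.98 and 11.06 log2. The one gene of the list higher on arrays 1 and 2 was Lyz2, with 13.59, 13.27, 12.81 and 13.00 log2. Lyz2 ranked 78th, and 97 of the 100 highest probe sets had this order. After quantile normalization no gene of the list was higher on both arrays 1 and 2. Values lower on both arrays 1 and 2 were not particular to macrophages. They were found for 6 of 10 mast cell, 7 of 13 T and NK cell and 6 of 11 capillary genes. In these lists 2, 3 and 4 genes were higher on both arrays 1 and 2. Of 10 alveolar macrophage genes 6 were lower on both, and 9 were lowest on array 1, against 28.7% of all genes. Cd68, a lysosomal glycoprotein, was among the 9, with 9.08, 10.13, 10.36 and 10.58 log2. Of 12 pericyte genes, 9 were also lowest on array 1. Here too the order of the arrays is close to that of the 3′ to 5′ gap of beta-actin, and its part was not tested.

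**Figure D5:**
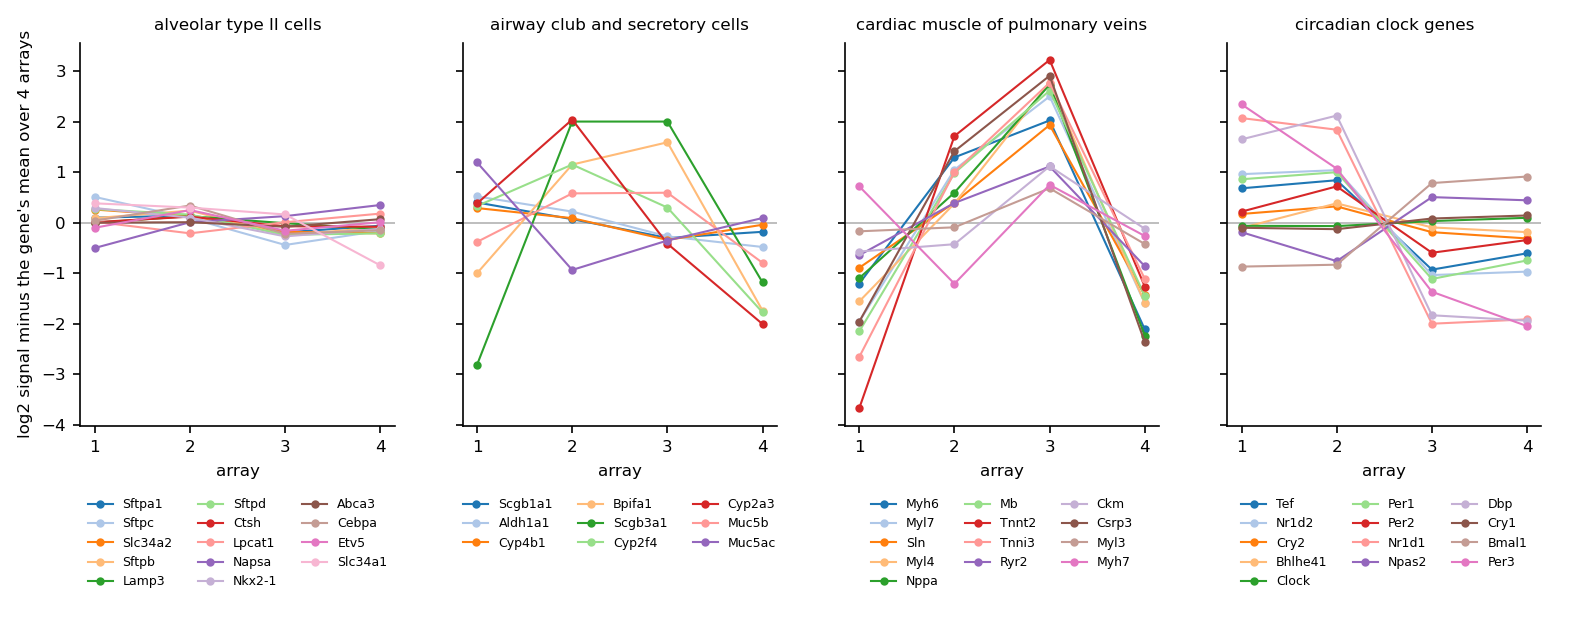
Log2 signal of each gene minus its mean over the 4 arrays (y axis) on arrays 1 to 4 (x axis) for 4 lists; each line is a gene. Type II genes stay near 0 (median SD 0.22), heart genes peak on array 3, airway genes vary in more than 1 order, and clock genes split arrays 1 and 2 from arrays 3 and 4 in both directions.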

How the data were processed

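Expression was measured in rat lung on 1 Affymetrix array per sample. The values are log2 signal intensities deposited by the authors, 1 per probe set and array; the submitters' processing notes name RMA, with no version. The shapes of the array distributions differ, and the mean of linear values after trimming 2% at each end was 500 on every array, so the summarisation is uncertain, the log2 scale is not. Values were used as deposited. The 4 room air columns were read; 7 columns of other samples were not used. Symbols came from the array annotation, updated through Entrez records to RefSeq (GRCr8): 20826 probe sets point to a single gene, 436 to more than 1, and 9780 carry no name. The number of arrays limits the precision, and array medians lay between 7.86 and 8.005 log2.

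The members and the 53 gene lists (433 symbols, 378 measured by a probe set of their own) were chosen with earlier results of these data known. Named were the 30 brightest single-gene probe sets, the 4 brightest and the lowest member of each list, all paralogues, 5 set markers, and the 15 largest and 10 smallest SDs; a few further list members were named after their values were seen. Endothelin receptors, Cdh5, Marco, Actb and Gapdh are among those not analysed here. Alternatives were quantile normalization, median centring, other ranks and backgrounds, the median over the probe sets of a gene, and leaving out arrays. Computation used Python 3.11.15, numpy 2.4.6 and pandas 2.3.3, with figures from matplotlib 3.10.9; the procedures were tested on simulated data.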

Additional observations from a re-analysis of the deposited data

Results flagged for a closer look

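In 10 of 326 tested values (3.07%), 1 array stood apart from the other 3: its gap to the nearest one, as a share of the whole range of the 4, was above Dixon's 95% critical value. Over all 14217 genes the share was 5.52%, and chance gives about 1 in 20. Array 2 was the high one for Ccdc113 (0.949), a ciliary protein, for Bhlhe41 (0.837), a clock repressor, and for the median of the sodium pump subunits (0.849). Array 2 was the low one for Cldn2 (0.92), a pore-forming claudin, and for the median of the neuronal genes (0.851). Array 1 was low for Trpc6 (0.949), a cation channel of pericytes and smooth muscle, and high for Cdx2 (0.844), an intestinal transcription factor, and Aqp7 (0.842), a glycerol channel. Array 4 was low for Cr2 (0.836), a complement receptor of B cells, and high for Otud5 (1), whose SD was only 0.015 log2.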

How the results depend on the processing

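The ranking changed little: 93 to 100 of the top 100 probe sets were shared under each alternative run. Between 22460 and 28894 probe sets lay above background, and the median SD of 0.29 log2 fell to 0.148 without arrays 1 and 2, which leaves a pair of arrays. That setting also gave median SDs of 0.106 for type II, 0.0849 for capillary and 0.0757 for clock genes. Quantile normalization gave 0.137 for capillary genes. Without arrays 2 and 3, chosen after seeing the data, the median SD was 0.131 for type II and 0.387 for heart genes. Leaving out 1 array at a time gave 0.558 (without array 4) to 1.06 for airway genes, and 1 (without array 4) to 2 metallothioneins above background. The causes were not tested. With the median over the probe sets of a gene in place of the brightest, 20 of 104 results on the lists moved. The 104 are 1 median level and 1 member count per measured list. All 20 were medians and moved by more than their SD, so the share among medians alone is larger. Among them were the type II median (11.91 log2), the capillary median (9.96 log2) and that of class II and dendritic cells (9.57 log2). Median centring moved 9 of 264 named genes, those with the smallest SDs. No paired analysis was possible because 1 group was described, with no comparison and no test. Precision is limited by 4 arrays and, for dim genes, by background.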
